A study of Mus musculus with 40 samples.

Results

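10 mouse genes of the epidermal alarm response are described here: the stress keratins Krt6a, Krt6b, Krt16 and Krt17, the calcium-binding proteins S100a8 and S100a9, and the alarm cytokines Il33, Tslp, Il1a and Il18. They were taken by symbol from the authors' table, in which 10 of 10 were found, each in a single row, among 23304 distinct symbols. RNA was sequenced in 40 libraries that form 10 groups of 4, and the 16 skin libraries carry the comparisons, with 24 mast cell libraries given as reference. In the study, MrgprD sensory neurons of the skin were removed or stimulated, and the question here is how these keratinocyte genes stood in each state.

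The first skin pair came from MrgprdCre mice, which carry the Mrgprdtm1.1(cre)And allele on a B6.129S1(Cg) background, and from MrgprdDTR mice, a cross of that strain with C57BL/6 mice carrying the Gt(ROSA)26Sortm1(HBEGF)Awai allele. Cre under control of the Mrgprd locus switches on the human diphtheria toxin receptor in the cross, so that diphtheria toxin (DT), given by intraperitoneal injection, removes cells with a history of Mrgprd expression. Both received acetone and olive oil (4:1) on the skin. The protocol describes DT for 3 to 4 weeks in both genotypes, whereas the treatment label of the MrgprdCre mice lists only acetone and olive oil, and this was not settled. The second pair were C57BL/6J mice treated once daily for 2 days with 50 mM β-alanine (β-ala), an agonist of the MrgprD receptor, or with phosphate-buffered saline (PBS). Mast cells were sorted from skin of MrgprdCre and MrgprdDTR mice, or derived from the peritoneal cavity and kept in culture for 6 h with vehicle or 4 mM glutamate and for 48 h with vehicle or 50 uM NS102, a kainate receptor antagonist. The labels used here give no ages and do not say whether libraries are separate animals, so p-values measure only the spread between these libraries. Libraries are numbered as in the labels.

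Keratinocytes of resting epidermis build their filaments from Krt5 with Krt14 and from Krt1 with Krt10. On wounding or inflammation they add the type II keratins Krt6a and Krt6b with the type I partners Krt16 and Krt17, which the hair follicle and its companion layer make at rest. S100a8 and S100a9 join into calprotectin, a metal-sequestering protein that stressed keratinocytes make and that neutrophils carry in bulk. Il33 and Il1a are stored in the cell and released on damage, Il18 is stored as a precursor that caspase-1 cuts, and Tslp is secreted by epithelium. Il33 acts through Il1rl1 and Tslp through Crlf2 with Il7r, and mast cells are among the cells that respond to Il33.

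Values are the authors' FPKM (fragments per kilobase of transcript and library size), which are scaled to transcript length, and their sum per skin library ranged from 427797 to 508485. Read depth is unknown. Skin carries the label Epidermal, but the protocol speaks of the whole ear: the summed level of 14 keratinocyte markers was 13400 to 16200 FPKM in all 16 libraries, beside 1720 to 2610 FPKM for 7 fibroblast markers and 374 to 2840 FPKM for 5 skeletal muscle markers. Mean Xist and Ddx3y, transcripts of the inactive X and of the Y chromosome, were 26.9 and 0 FPKM in MrgprdCre, 34.6 and 0 in MrgprdDTR, 0.0348 and 15.3 in PBS, and 0.0238 and 15.6 in β-ala. Sorted mast cells did not match the skin of their genotypes in this, with 0.00703 and 6.35 FPKM in MrgprdCre and 0.02 and 6.5 in MrgprdDTR. The skin pairs thus differ in strain, vehicle and sex-linked transcripts together, and these cannot be told apart. Within the first pair, the cross with its added allele goes together with the removal of cells, and DT may too. Those cannot be told apart either. Tests used limma on log2(FPKM + 1), adjusted by the Benjamini-Hochberg method over all genes that reached 1 FPKM in 4 or more libraries of the comparison, with an adjusted p under 0.05 taken as passing. In bulk skin, fewer cells of a type and less RNA per cell cannot be told apart.

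The keratin genes lie in neighbouring pairs. On build mm9, Krt6b (chr15:101506453-101510720) ends 9638 bases before Krt6a (chr15:101520358-101524736) begins, and Krt16 (chr11:100107405-100110216) ends 7314 bases before Krt17 (chr11:100117530-100122303). The coding sequences of Krt6a and Krt6b were 97.8% identical over 1662 aligned bases, and 43.6% of 50-base windows of the Krt6a transcript occurred unchanged in Krt6b. Because reads from such windows fit both genes, the division of signal between Krt6a and Krt6b depends on how the authors' counting shared them, and both values are uncertain to that extent. Krt16 and Krt17 were 78.2% identical and shared 0.4% of Krt16 windows, while Krt16 shared 12.4% of its windows with Krt14. The stretch in which the Krt6 copies differ most, coding bases 787 to 876 of the GENCODE vM21 transcripts (5′ to 3′), is shown because reads over it tell the copies apart, with the 12 differing bases in capitals.
Krt6a: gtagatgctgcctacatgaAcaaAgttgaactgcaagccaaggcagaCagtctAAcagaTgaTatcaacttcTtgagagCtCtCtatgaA
Krt6b: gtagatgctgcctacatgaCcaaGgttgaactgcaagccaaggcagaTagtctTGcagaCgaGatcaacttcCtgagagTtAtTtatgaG

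**Figure D1:**
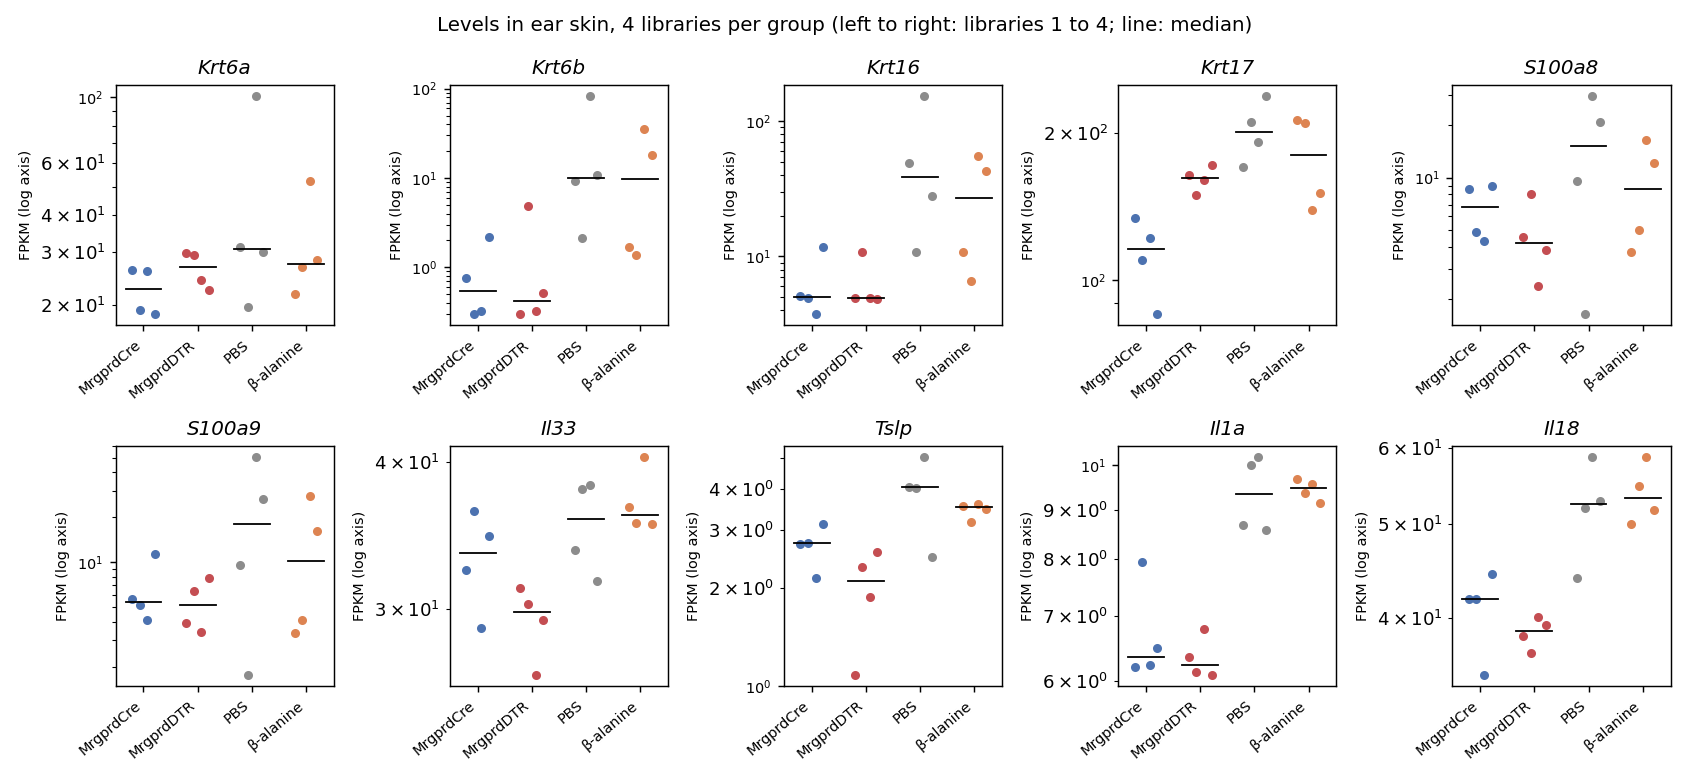
FPKM (log axis) of the 10 genes in the 16 skin libraries, 1 panel per gene, with 4 points per group for libraries 1 to 4 and a bar at the group median. Krt6b, Krt16, S100a8 and S100a9 spread widely within groups, and Krt17 in MrgprdDTR (149 to 172 FPKM) lies above all 4 MrgprdCre libraries (85.3 to 134 FPKM).

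Krt17, the most abundant of the 10 genes, rose in MrgprdDTR skin. Its FPKM in libraries 1 to 4 were 134, 110, 122 and 85.3 in MrgprdCre and 164, 149, 160 and 172 in MrgprdDTR. The lowest MrgprdDTR library thus stood above the highest MrgprdCre library. Means were 113 ± 20.6 and 161 ± 9.48 FPKM (SD, n = 4 each), a log2 difference of 0.53 (SE 0.114, 95% interval 0.28 to 0.78, limma adjusted p = 0.0172). PBS libraries held 170, 210, 192 and 238 FPKM and β-ala libraries 212, 209, 139 and 151, and both groups overlapped MrgprdDTR and each other.

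Krt6a, the Krt6 copy with the higher level, lay between 18.6 and 31.4 FPKM in 14 of the 16 skin libraries. MrgprdCre libraries held 26.1, 19.2, 25.9 and 18.6 FPKM, and MrgprdDTR libraries 29.9, 29.5, 24.3 and 22.5. PBS libraries held 31.4, 19.7, 101 and 30.1 FPKM, and β-ala libraries 21.7, 26.8, 52 and 28.2. The third library of each of the latter groups stood above the rest, and all 4 groups overlapped. Neither the MrgprdDTR difference (0.24 on the log2 scale, 95% interval -0.04 to 0.52, limma adjusted p = 0.214) nor the β-ala difference (-0.28, interval -1.26 to 0.69, adjusted p = 0.865) passed.

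Krt6b was low in the MrgprdCre and MrgprdDTR mice and scattered in the C57BL/6J mice. Its FPKM were 0.77, 0.3, 0.329 and 2.17 in MrgprdCre, and 0.303, 4.85, 0.329 and 0.52 in MrgprdDTR. PBS libraries held 9.23, 2.11, 83.1 and 10.7 FPKM, and β-ala libraries 1.69, 1.36, 35.7 and 18. Within PBS the highest library was 39.3 times the lowest, and within β-ala 26.3 times. Krt6b was below the expression filter in the MrgprdDTR comparison, where an exact two-sided permutation test of 4 against 4 libraries gave p = 0.8 for a log2 difference of 0.17. In β-ala against PBS the difference was -0.71 (95% interval -3.13 to 1.72, limma adjusted p = 0.865).

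As a share of the summed Krt6a and Krt6b FPKM, Krt6b made up 1% to 14.1% in the 8 MrgprdCre and MrgprdDTR libraries. The share was 22.7%, 9.68%, 45.1% and 26.2% in PBS, and 7.24%, 4.82%, 40.7% and 39% in β-ala. Libraries rich in Krt6b were therefore rich in it relative to its near-copy as well.

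Krt16, the type I partner induced together with Krt6, varied with Krt6b. MrgprdCre libraries held 5.06, 4.97, 3.75 and 11.8 FPKM, and MrgprdDTR libraries 4.89, 10.7, 4.92 and 4.83. PBS libraries held 48.8, 10.7, 153 and 28 FPKM, and β-ala libraries 10.8, 6.57, 55.5 and 43. The MrgprdCre and MrgprdDTR means differed by 0.03 on the log2 scale (95% interval -0.64 to 0.70, limma adjusted p = 0.96). β-ala stood 0.89 below PBS (log2 difference -0.89, interval -2.70 to 0.93, adjusted p = 0.764), and the libraries overlapped. The β-ala interval reaches far below a log2 difference of -1.

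Across the 16 skin libraries, Pearson's r between log2 levels was 0.98 for Krt6b with Krt16, and 0.96 after each group's mean was subtracted, as a description. Krt6a followed Krt6b at 0.81 (0.79 after subtraction), with shared reads between those copies. Krt17 did not share this pattern: its r with Krt6b was 0.23, and -0.63 after subtraction, and with Krt16 0.25 and -0.72. Libraries of a group share strain and treatment, and PBS library 3 is the highest point for Krt6a, Krt6b and Krt16.

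S100a8 (chr3:90472992-90473956, mm9) and S100a9 (chr3:90496554-90499613) lie 22598 bases apart. Their 250 upstream bases (RefSeq, GRCm38.p6, 5′ to 3′ on the gene's strand) are shown because the genes' levels moved together, S100a8 at chr3:90668821-90669070 on the plus strand with the letters TATAAA in capitals, and S100a9 at chr3:90695722-90695971 on the minus strand with TTGCTTAA in capitals, a match to the C/EBP letters TTGCNNAA.
S100a8: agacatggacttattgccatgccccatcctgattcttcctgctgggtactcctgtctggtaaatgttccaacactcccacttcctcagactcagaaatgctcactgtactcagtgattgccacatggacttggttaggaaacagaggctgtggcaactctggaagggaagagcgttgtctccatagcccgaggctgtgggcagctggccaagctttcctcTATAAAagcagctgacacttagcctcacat
S100a9: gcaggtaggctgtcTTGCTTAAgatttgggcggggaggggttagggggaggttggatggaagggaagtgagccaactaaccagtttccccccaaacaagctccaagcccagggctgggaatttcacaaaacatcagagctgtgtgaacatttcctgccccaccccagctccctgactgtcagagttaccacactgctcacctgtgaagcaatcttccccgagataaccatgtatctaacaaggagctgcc
The S100a8 match begins 30 bases before the start, and TATAAA occurs in 12.4% of 32851 mouse upstream windows of that length searched on both strands. The S100a9 match begins 236 bases before the start, and TTGCNNAA occurs in 9.6% of windows. The AP-1 letters TGANTCA (6.7% of windows) and the STAT-type letters TTCNNNGAA (7.0%) were found in neither. The searched motifs are short, and a match describes letters only. Upstream sequence was looked up for all of the 10 genes except Tslp, and was at hand for 5. Among these, Il1a had an AP-1 match 12 bases and a TATAAA match 32 bases before its start. TATAAA also matched 175 bases before the start of Il18, and 203 and 29 bases before the listed starts of Il33. The C/EBP letters matched 85 bases before the second of the Il33 starts.

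S100a8 FPKM in libraries 1 to 4 were 8.59, 4.88, 4.29 and 8.9 in MrgprdCre and 4.55, 8.04, 2.37 and 3.84 in MrgprdDTR. PBS libraries held 9.55, 1.64, 29.5 and 21 FPKM, and β-ala libraries 3.73, 4.98, 16.4 and 12.2. PBS spanned the range of all the other groups, from the lowest to the highest library of the 16. The log2 difference was -0.46 in MrgprdDTR (95% interval -1.10 to 0.18, limma adjusted p = 0.291) and -0.38 in β-ala (interval -1.95 to 1.18, adjusted p = 0.886).

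S100a9 FPKM were 5.65, 5.21, 4.13 and 11.4 in MrgprdCre and 3.9, 6.38, 3.41 and 7.88 in MrgprdDTR. PBS libraries held 9.59, 1.76, 51 and 26.5 FPKM, and β-ala libraries 3.36, 4.13, 27.9 and 16.3. High and low libraries were those of S100a8 in PBS and β-ala, with library 3 highest and library 4 next. The log2 difference was -0.22 in MrgprdDTR (95% interval -0.84 to 0.40, limma adjusted p = 0.612) and -0.48 in β-ala (interval -2.44 to 1.49, adjusted p = 0.887). Between the 2 genes r was 0.95 over the 16 libraries, and 0.94 after group means were subtracted. With Krt6b, r was 0.83 for S100a8 and 0.86 for S100a9, and 0.87 and 0.89 after subtraction.

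**Figure D2:**
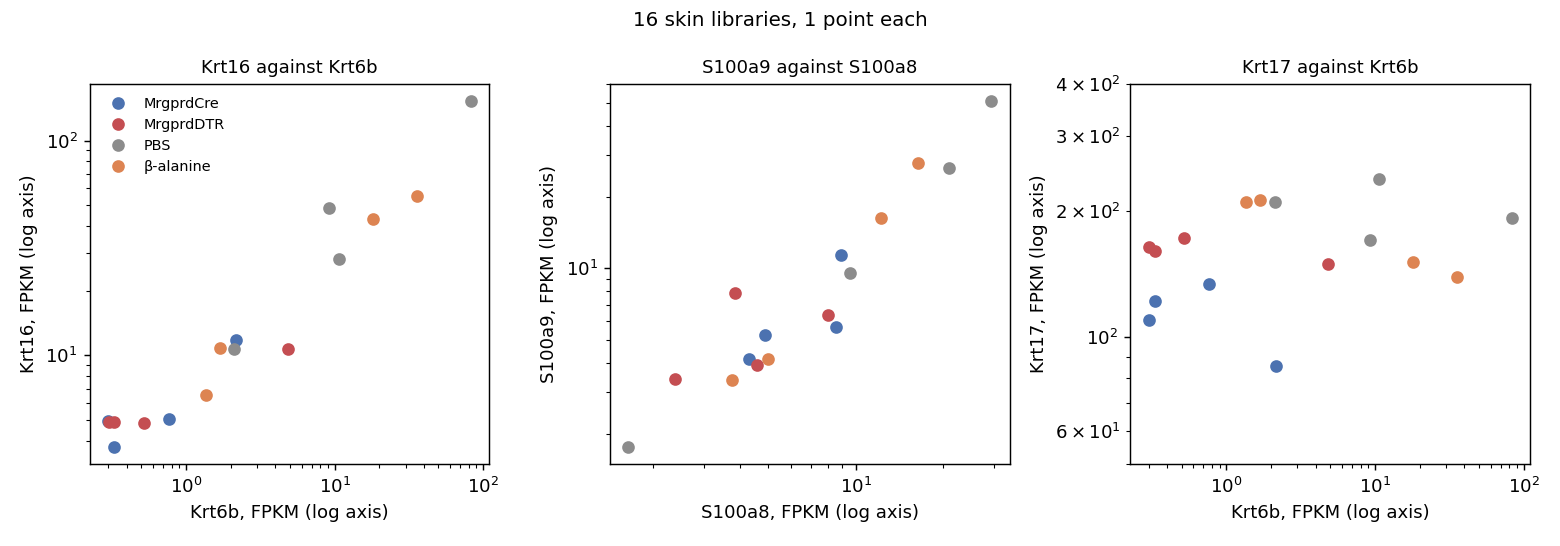
Krt16 against Krt6b, S100a9 against S100a8, and Krt17 against Krt6b, as FPKM on log axes, with 1 point per skin library coloured by group. The first and second panels run along a diagonal, with PBS library 3 (Krt6b 83.1 FPKM, S100a9 51 FPKM) at the upper end, and Krt17 does not follow Krt6b.

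Neutrophil markers were checked because neutrophils carry both S100 proteins. PBS library 3 held the highest Cxcr2 (3.66 FPKM, against 0.998 to 2.4 in the other 15 skin libraries), Csf3r (1.11 FPKM) and Trem1 (0.397 FPKM), while Ltf and Elane were listed at 0 there and Ngp at 0.0456 FPKM. Over 11 neutrophil markers the summed FPKM ranged from 53.2 to 59.2 in MrgprdCre, 43.8 to 45 in MrgprdDTR, 69.1 to 86.1 in PBS and 71.1 to 92 in β-ala. Most of each sum was Il1r2, a decoy receptor for interleukin-1 (40.9 to 87.8 FPKM). Of the 11, Trem1 was listed at 0 in all MrgprdCre libraries and Ngp in all MrgprdDTR libraries. The part of neutrophils in the S100a8 and S100a9 levels was not tested.

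Within groups, Krt6b, Krt16, S100a8 and S100a9 were among the most variable transcripts of the skin. Their coefficients of variation exceeded those of at least 98.4% of 12638 expressed genes in each of the 4 groups, where the median gene had 6.21% to 10.8%. Krt6b reached 145% in PBS and 149% in MrgprdDTR. Il33 and Il18 varied less, with 6.32% to 9.69% and 3.65% to 11.7%. Tslp, at a low level, varied by 5.64% in β-ala and 15.3% in MrgprdCre but by 26.9% in PBS and 33.4% in MrgprdDTR, above 95.7% and 98.8% of genes. PBS library 3 was the highest of the 16 libraries for 7 of the 10 genes (Krt6a, Krt6b, Krt16, S100a8, S100a9, Tslp and Il1a), and for 12.7% of all genes. Among 29 other epidermal alarm genes it was highest for 15, including the antimicrobial Lcn2, the chemokine Cxcl1, the cytokine Il1b and the envelope precursors Sprr1a, Sprr2e and Sprr2h. Among 16 other keratins of epidermis and companion layer it was highest for 0.

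Il1b, the secreted relative of Il1a, shows the libraries concerned at low level. It was 0.884, 0.2, 6.6 and 1.23 FPKM in PBS and 0.334, 0.377, 3.07 and 4.1 in β-ala, against 0.176 to 0.367 in the 8 MrgprdCre and MrgprdDTR libraries. Sprr1b, an envelope precursor, was 130, 25.7, 126 and 22.2 FPKM in PBS and 12.6, 11.6, 49.7 and 64.5 in β-ala, against 1.23 to 11 in MrgprdCre and MrgprdDTR. Both varied widely among the C57BL/6J libraries. In PBS, Il1b had the same library order as Krt6b, while Sprr1b was highest in library 1. In β-ala, Il1b and Sprr1b were highest in library 4, and Krt6b and Krt16 in library 3.

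Il33 (chr19:29999603-30035205), the nuclear cytokine read by Il1rl1, held 32.4, 36.3, 28.9 and 34.6 FPKM in MrgprdCre and 31.3, 30.3, 26.4 and 29.4 in MrgprdDTR. PBS libraries held 33.7, 37.9, 38.2 and 31.7 FPKM, and β-ala libraries 36.6, 35.5, 40.4 and 35.4. Group means ranged from 29.4 ± 2.1 to 36.9 ± 2.34 FPKM, with overlap between all neighbours. The MrgprdDTR difference was -0.16 on the log2 scale (SE 0.0727, 95% interval -0.32 to -0.00084, limma adjusted p = 0.154), and that of β-ala 0.06 (95% interval -0.11 to 0.23, adjusted p = 0.825).

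Tslp (chr18:32975036-32979453), the epithelial cytokine upstream of type 2 immunity, was the lowest of the cytokines. Its FPKM were 2.72, 2.74, 2.14 and 3.14 in MrgprdCre and 1.08, 2.31, 1.87 and 2.57 in MrgprdDTR. PBS libraries held 4.06, 4.05, 5.04 and 2.49 FPKM, and β-ala libraries 3.56, 3.17, 3.6 and 3.48. All 4 β-ala libraries lay above all 8 MrgprdCre and MrgprdDTR libraries, while PBS library 4 fell among them. The MrgprdDTR difference was -0.34 on the log2 scale (SE 0.153, 95% interval -0.68 to -0.002, limma adjusted p = 0.154), and that of β-ala -0.11 (95% interval -0.43 to 0.20, adjusted p = 0.828).

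Il1a (chr2:129125345-129135708), the stored cytokine read by Il1r1, held 6.21, 7.96, 6.23 and 6.49 FPKM in MrgprdCre and 6.35, 6.13, 6.78 and 6.09 in MrgprdDTR. PBS libraries held 8.67, 10, 10.2 and 8.58 FPKM, and β-ala libraries 9.67, 9.37, 9.55 and 9.13. The C57BL/6J libraries all lay above the others, and within each pair the libraries overlapped. The MrgprdDTR difference was -0.07 (95% interval -0.23 to 0.09, limma adjusted p = 0.544) and that of β-ala 0.01 (interval -0.15 to 0.17, adjusted p = 0.971), both on the log2 scale.

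Il18 (chr9:50373472-50389942), the precursor cut by caspase-1, was the most abundant of the cytokines. Its FPKM were 41.8, 41.8, 34.9 and 44.4 in MrgprdCre and 38.3, 36.8, 40.1 and 39.3 in MrgprdDTR. PBS libraries held 44, 52, 58.8 and 52.9 FPKM, and β-ala libraries 50.1, 54.8, 58.8 and 51.7. PBS library 1 lay among the MrgprdCre libraries and the rest of PBS and β-ala above them. The MrgprdDTR difference was -0.07 (95% interval -0.22 to 0.08, limma adjusted p = 0.5) and that of β-ala 0.06 (interval -0.14 to 0.26, adjusted p = 0.867), both on the log2 scale. Over the 16 libraries r between Il1a and Il18 was 0.90, and 0.43 after group means were subtracted.

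In MrgprdDTR against MrgprdCre skin, 1 of the 9 genes that could be tested passed, Krt17, which rose. Of all 12560 genes tested, 13.8% passed, 7.46% higher and 6.35% lower. The median log2 difference was -0.07 over the 9 genes and 0.014 over all genes. Krt17 was also the 1 gene of the 10 whose MrgprdDTR and MrgprdCre libraries did not overlap, as was the case for 21.4% of genes tested, 11.8% higher and 9.6% lower. Beside Krt17, markers of several cell types moved in MrgprdDTR. Of 14 keratinocyte markers 3 rose (summed FPKM 13400 to 14100 in MrgprdCre, 15100 to 16200 in MrgprdDTR), and of 6 hair follicle markers tested 1 rose, Lhx2 (sum of 15 listed, 19.2 to 36.1 and 24.5 to 28.6). All 5 skeletal muscle markers (sums 771 to 1770 and 374 to 525) and all 5 adipocyte markers (425 to 522 and 185 to 217) fell, and all 7 mast cell markers rose (64.9 to 86.1 and 194 to 238). None of the markers in those lists was listed at 0 in all libraries of either group, and their part in the Krt17 difference was not tested.

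Under β-alanine, 0 of 10 genes passed in limma, and all 10 had unadjusted p of at least 0.212. Among all 12663 genes tested, 27 (0.213%) passed, 0.0158% higher and 0.197% lower, and 1244 had an unadjusted p under 0.05. The median log2 difference was -0.24 over the 10 genes and -0.044 over all genes. None of the 10 had groups without overlap, against 6.44% of genes tested, 0.869% higher and 5.57% lower. The intervals differ by gene: they span less than 0.5 on the log2 scale for Il33, Il1a and Il18, and more than 3 for Krt6b, Krt16, S100a8 and S100a9.

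**Figure D3:**
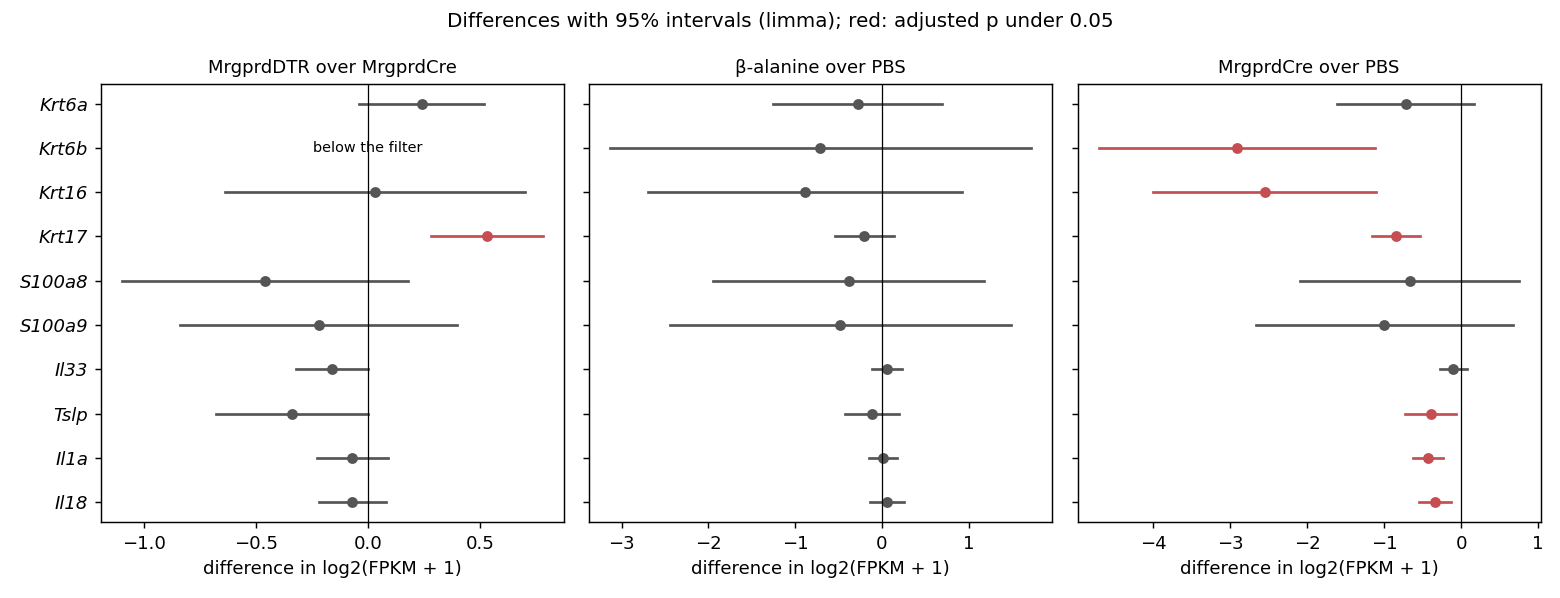
Log2 differences in FPKM + 1 with 95% intervals from limma for the 10 genes, in MrgprdDTR against MrgprdCre, β-ala against PBS, and MrgprdCre against PBS (Krt6b has no interval in the first, being below the filter). Points in red passed at an adjusted p under 0.05: Krt17 in the first, 0 in the second and 6 genes in the third.

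The control groups themselves differed in most of these genes. Set against PBS, MrgprdCre skin was lower in 6 of 10: Krt17 (log2 difference -0.85, limma adjusted p = 0.000538), Krt16 (-2.55, adjusted p = 0.00745), Krt6b (-2.91, adjusted p = 0.011), Il1a (-0.43, adjusted p = 0.00178), Il18 (-0.34, adjusted p = 0.0111) and Tslp (-0.39, adjusted p = 0.0478). Krt6b met the expression filter only through PBS, where it was high (2.11 to 83.1 FPKM, against 0.3 to 2.17 in MrgprdCre). Its call thus rests on the group that admitted it to the test. The background is high, since 56.6% of 12658 genes passed, 40.2% lower and 16.3% higher in MrgprdCre, and the median gene stood at -0.112. Krt6a (-0.72, adjusted p = 0.147), S100a8 (-0.67, adjusted p = 0.395), S100a9 (-1.0, adjusted p = 0.276) and Il33 (-0.10, adjusted p = 0.327) did not pass. Libraries of Krt17 and Il1a did not overlap, as for 51.5% of genes, 36.5% lower and 15% higher in MrgprdCre. With each library centred on its median gene, Il18 (-0.22, adjusted p = 0.0709) and Tslp (-0.27, adjusted p = 0.15) no longer passed. Without PBS library 2, the PBS library lowest in Krt6a, Krt6b, Krt16 and the S100 genes, S100a8 (-1.38, adjusted p = 0.00894), S100a9 (-1.79, adjusted p = 0.0117) and Krt6a (-1.02, adjusted p = 0.0414) passed too. In the other 18 settings S100a8, S100a9 and Krt6a did not pass (limma adjusted p up to 0.799, 0.653 and 0.282). Cell type markers moved in the same comparison. In MrgprdCre 7 of 14 keratinocyte markers were lower and 1 higher (summed FPKM 13400 to 14100, against 14400 to 15100 in PBS), 6 of 7 mast cell markers lower (64.9 to 86.1 against 208 to 255), and 5 of 7 fibroblast markers higher and 1 lower (1740 to 2610 against 1720 to 2110). Of 8 sebaceous gland markers 4 were lower and 2 higher (2000 to 2630 against 1910 to 2680). No marker of these 4 lists was listed at 0 in all libraries of either group, and their part in the 6 differences was not tested. This comparison shares its MrgprdCre libraries with the MrgprdDTR comparison and its PBS libraries with the β-alanine comparison.

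The MrgprdDTR effect (against MrgprdCre) was set against the β-alanine effect by an interaction term over the 16 skin libraries. Krt17 had a difference of effects of 0.73 on the log2 scale (SE 0.209, 95% interval 0.29 to 1.18, limma adjusted p = 0.0463), the MrgprdDTR effect being 0.53 and the β-alanine effect -0.20. It was the 1 gene of the 10 past the test, where 6.65% of 12944 genes were, 5.38% in its direction and 1.27% in the other. The call did not hold in 12 of the 16 fits that left out a single library (adjusted p 0.0205 to 0.0942). With the 2 libraries of highest Krt6b, PBS 3 and β-ala 3, left out, it was 0.65 (adjusted p = 0.108).

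Receptors and modifiers of the cytokines are read against the 13.8% of all genes that passed in MrgprdDTR, 7.46% higher and 6.35% lower. In MrgprdDTR skin 1 of 11 receptor genes tested fell and 0 rose (median log2 difference 0.03): Il1r2, the decoy that binds Il1a without signalling, went from 53.8 ± 2.49 to 42 ± 0.783 FPKM (SD, n = 4 each, -0.35, limma adjusted p = 0.00131). Of 11 inhibitors and processing genes 3 rose and 0 fell (median 0.08). Casp1, the protease of the Il18 precursor, went from 3.04 ± 0.204 to 4.9 ± 0.401 FPKM (0.55, adjusted p = 0.00128), and the pore-forming Gsdmd from 2.85 ± 0.397 to 3.92 ± 0.297 (0.36, adjusted p = 0.0185). The third was Gsdma (0.21, adjusted p = 0.0168). Under β-alanine 0 of 12 receptor genes and 0 of 13 inhibitors and processing genes passed. Between the control groups 5 of 12 receptor genes were lower and 2 higher in MrgprdCre, near the shares of all genes there (40.2% lower and 16.3% higher). The Tslp receptor chain Crlf2 was higher there (6.75 ± 0.696 against 3.47 ± 0.628 FPKM in PBS, 0.80, adjusted p = 0.000113), and the antagonist Il1rn lower (25.9 ± 2.46 against 47.1 ± 3.14 FPKM, -0.84, adjusted p = 1.23e-05).

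Other epidermal alarm genes were mixed. Of 27 tested in MrgprdDTR skin, 4 rose and 2 fell (median -0.09, all genes 0.014). Ccl20, a chemokine for Ccr6-bearing cells, rose from 3.86, 2.21, 1.97 and 4.88 FPKM to 9, 9.36, 6.64 and 12.1 (log2 difference 1.31, limma adjusted p = 0.00681), with no overlap. The defensin Defb6 rose from 383 ± 49.4 to 579 ± 61.2 FPKM (0.60, adjusted p = 0.00693) and the envelope precursor Sprr1a from 100 ± 19.1 to 140 ± 22.6 (0.48, adjusted p = 0.0414), while S100a10 fell from 381 ± 30.7 to 320 ± 7.55 (-0.25, adjusted p = 0.0193). Under β-alanine 0 of 30 passed. Against PBS, 17 of 28 were lower and 1 was higher in MrgprdCre (median -0.45). Among those lower were S100a11 (684 ± 39.9 against 1670 ± 139 FPKM) and Sprr1a (100 ± 19.1 against 308 ± 41.9). Of all genes, 40.2% were lower and 16.3% higher in that comparison (median -0.112).

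Of 16 other keratins, 2 rose in MrgprdDTR and 0 fell (median 0.09). These were keratins of the suprabasal layers, Krt10 (5760 ± 258 to 6680 ± 200 FPKM, limma adjusted p = 0.0344) and Krt2 (5260 ± 184 to 6130 ± 360 FPKM, adjusted p = 0.0393). Under β-alanine 0 of 16 passed, where 0.213% of all genes did. Against PBS 7 of 16 were lower in MrgprdCre, Krt5 and Krt14 included, a share near the 40.2% of all genes lower there. Of 24 regulators of the stress programme, 4 rose and 1 fell in MrgprdDTR. Fos, a subunit of AP-1, fell from 11.2, 23.3, 18.1 and 10.3 FPKM to 6.25, 5.71, 4.73 and 4.92 (-1.32, adjusted p = 0.00565). It was also the 1 regulator past the test under β-alanine, falling from 8.45, 10.3, 11.6 and 10.9 FPKM to 3.1, 3.92, 3.43 and 3.07 (-1.36, adjusted p = 0.0001). Neither set of Fos libraries overlapped.

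Genes whose log2 level followed a member most closely over the 16 skin libraries were looked up among 8361 genes with a mean of at least 5 FPKM. For Krt6a these were Ddx21 (r = 0.882), Eftud1 (0.879), Dhx9 (0.859), Ncl (0.858) and Xrn2 (0.850). For S100a8 they were Uhrf1bp1l (0.855), Snhg3 (0.812), BC100530 (0.807), Topbp1 (0.800) and Gars (0.799). Il33 was followed by Ugp2 (0.886), Sdcbp2 (0.880), Anxa1 (0.868), Nt5c3 (0.863) and Eif4e3 (0.863). BC100530 spanned the range of the S100 genes, with 21.7, 3.25, 92.8 and 12.9 FPKM in PBS and 0.412 to 9.44 in the MrgprdCre and MrgprdDTR libraries. Group means of the closest gene to Krt6a spanned less than those of Krt6a, 22.4 to 45.6 FPKM (Ddx21 18.2 to 20.8 FPKM over the 4 groups). After group means were subtracted, 0 of 5, 2 of 5 (Topbp1 and Gars) and 0 of 5 remained among the 5 closest to Krt6a, S100a8 and Il33.

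Mast cells held next to none of the keratins. Krt6a, Krt6b, Krt16 and Krt17 were listed at 0 in all 16 cultured libraries and reached at most 0.261 FPKM in the 8 sorted libraries. Il33 reached at most 0.236 FPKM and Tslp at most 0.333 FPKM in the 24 mast cell libraries. The receptor of Il33 stood the other way round, with Il1rl1 at 20.4 ± 6.26 FPKM in sorted MrgprdCre and 27.6 ± 11.3 in sorted MrgprdDTR mast cells, and group means of 0.414 to 1.2 FPKM in skin. The sorted groups were not alike in markers. Mast cell markers summed to 8910 to 13400 FPKM in MrgprdCre and 17600 to 28700 in MrgprdDTR. Langerhans and T cell markers summed to 234 to 368 and 0.378 to 0.893 FPKM, while fibroblast sums overlapped (4.34 to 384 and 23.7 to 140). The part of other cells in the Il1rl1 levels was not tested.

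In sorted mast cells, 1 library carried nearly all S100a8, S100a9 and Il1a. Sorted MrgprdCre library 3 held 112 FPKM of S100a8, 76.7 of S100a9 and 4.12 of Il1a, where the other 7 sorted libraries held at most 0.218, 0.209 and 0.0639 FPKM. The same library held the neutrophil genes Retnlg (18.8 FPKM, listed at 0 in the other 7) and Trem1 (2.05 FPKM, at most 0.0412 in the other 7) and Il1r2 at 11.9 FPKM (at most 6.58 in the other 7). Camp, Ltf and Elane were listed at 0 in it. Cxcr2 was 44.8 to 71.2 FPKM in all 4 sorted MrgprdCre libraries and at most 0.0601 in sorted MrgprdDTR. The part of these cells in the S100a8 level was not tested. All 10 genes were below the filter in sorted cells, where 35.9% of the 8834 genes tested passed, 19% higher and 16.8% lower, and exact two-sided permutation tests of 4 against 4 libraries gave p of at least 0.429.

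Cultured mast cells made Il18 and Il1a at low level. Il18 held 5.5, 7.84, 6.72 and 6.53 FPKM after 6 h with vehicle and 1.19, 1.04, 1.07 and 1.41 with glutamate. The log2 difference was -1.80 (95% interval -2.01 to -1.60, limma adjusted p = 1.68e-09). Of 8273 genes tested 79.3% passed, 62.4% lower and 16.9% higher, and the median gene stood at -0.328. With libraries centred on their medians the Il18 difference was -1.39 (adjusted p = 7.35e-08). After 48 h it held 0.88, 0.565, 0.802 and 0.452 FPKM with vehicle and 1.46, 1.17, 0.95 and 1.31 with NS102, below the filter (exact two-sided permutation p = 0.0286, the smallest that 4 against 4 can give, and 0.143 adjusted over 20 tests).

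Il1a rose with NS102. It held 1.09, 1.35, 1.78 and 1.44 FPKM with vehicle for 48 h and 3.35, 3.09, 4.2 and 4.35 with NS102. The log2 difference was 0.97 (95% interval 0.73 to 1.21, limma adjusted p = 7.56e-06), where 70.5% of 8349 genes passed, 30.8% higher and 39.7% lower. After 6 h it was 0.669, 0.825, 0.637 and 0.623 FPKM with vehicle and 0.501, 0.408, 0.353 and 0.975 with glutamate (below the filter, exact two-sided permutation p = 0.371). S100a8 was 0.247, 0.509, 0.228 and 0.44 FPKM with vehicle for 48 h and listed at 0 in the 4 NS102 libraries. It was below the filter (exact two-sided permutation p = 0.0286, the smallest possible, and 0.143 adjusted over 20 tests).

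**Figure D4:**
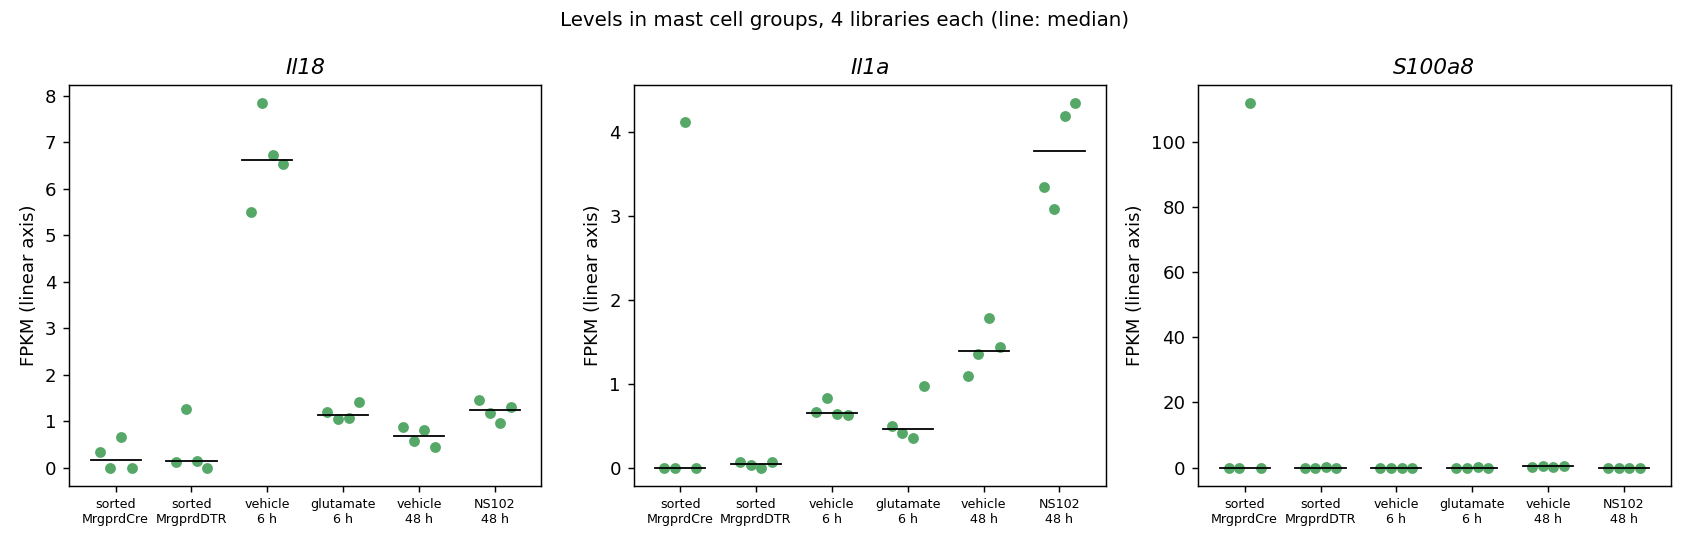
FPKM (linear axis) of Il18, Il1a and S100a8 in the 6 mast cell groups, with 4 points per group for libraries 1 to 4 and a bar at the median. Il18 stands lower with glutamate (1.04 to 1.41 FPKM) than with its vehicle (5.5 to 7.84), Il1a higher with NS102 (3.09 to 4.35) than with its vehicle (1.09 to 1.78), and S100a8 is high in 1 sorted MrgprdCre library (112 FPKM).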

How the data were processed

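RNA-seq values of 40 mouse libraries (10 groups of 4) were taken from 1 deposited table. The authors made its FPKM values with STAR and Cufflinks on build mm9, per the submitters' processing notes; versions, annotation and strandedness are not given in the sources used here. FPKM hold no counts, so depth is unknown and no counting interval is given.

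Values entered on the log2(FPKM + 1) scale as deposited. Genes that reached 1 FPKM in 4 or more libraries of a comparison were tested with limma 3.58.1 (mean-variance trend, two-sided, R 4.3.3), fitted on the libraries of that comparison and adjusted by Benjamini-Hochberg over all genes tested. Log2 differences of genes near 0 FPKM are understated by the added 1. Genes of the 10 below the filter got an exact permutation test (scipy 1.17.1, 20 tests). The procedure was tested on simulated data. The 10 genes and the lists beside them were chosen with earlier results of these data known. For each list up to 4 genes past the test could be named, by p, and 5 genes of closest pattern for Krt6a, S100a8 and Il33. Transcript sequences came from GENCODE vM21 and upstream sequences from RefSeq. Alternatives were pseudocounts 0.1 and 5, no filter and 5 FPKM, median centring, quantile normalization, a replicate block, a spread shared by the skin libraries, no trend, and each library left out. A correction for transcript length and a fit without PBS 3 and β-ala 3 were chosen after seeing the data.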

Additional observations from a re-analysis of the deposited data

Results flagged for a closer look

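The search covered 49 sets of a gene and a group with a library of at least 1 FPKM. In each set the highest and lowest library were compared with the other 3 (Dixon's criterion at 95%). Its nominal rate of chance flags, about 1 in 20 sets, does not hold for sets admitted by the same library that was then flagged. These were Krt6b in MrgprdDTR skin, S100a8, S100a9 and Il1a in sorted MrgprdCre cells, and Il18 in sorted MrgprdDTR cells. Their flags are given as a description only. In skin, 1 library stood above the rest of its group for Krt6a in PBS (library 3, 101 FPKM), Krt6b in PBS (library 3, 83.1 FPKM), Krt6b in MrgprdDTR (library 2, 4.85 FPKM), Krt16 in MrgprdDTR (library 2, 10.7 FPKM), Krt16 in MrgprdCre (library 4, 11.8 FPKM) and Il1a in MrgprdCre (library 2, 7.96 FPKM). In sorted mast cells this held for MrgprdCre library 3 with S100a8 (112 FPKM), S100a9 (76.7 FPKM) and Il1a (4.12 FPKM), and for MrgprdDTR library 2 with Il18 (1.27 FPKM). Krt6b and Krt16 were high in the same MrgprdDTR library.

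For Krt17, the MrgprdDTR effect (against MrgprdCre) differed from the β-alanine effect by 0.73 on the log2 scale (limma interaction term, adjusted p = 0.0463, 16 libraries), and the call was lost in 17 of 26 other settings.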

How the results depend on the processing

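Krt17 in MrgprdDTR kept its call in all 18 other settings (log2 0.4 to 0.62, limma adjusted p 0.00982 to 0.0475, the last close to the threshold). Under β-alanine 0 of 10 genes passed in each of its 19. Genes past the test in MrgprdDTR (1734) were 727 with a spread shared by the skin libraries and 782 to 1519 with single libraries left out (1127 without MrgprdCre 2, 931 without MrgprdCre 4, 859 without MrgprdDTR 1, 782 without MrgprdDTR 2, 995 without MrgprdDTR 3). Under β-alanine (27) they were 130 with the shared spread, 4 without PBS 3 and β-ala 3, and 11 to 38 with single libraries left out (11 to 13 without any 1 PBS library). For the difference of effects (861) they were 402 without PBS 3 and β-ala 3 and 372 to 1481 with single libraries left out (372 to 553 without MrgprdCre 2 or 4, MrgprdDTR 1, 2 or 3, PBS 1 or 3, and 1481 without β-ala 1). Krt17's difference of effects did not pass with no filter (adjusted p = 0.0782), median centring (0.0688), transcript length correction (0.0531), the replicate block (0.0692) or without PBS 3 and β-ala 3 (0.108), which left 0 of the 10 genes, and single libraries left out gave 0 to 1. Between MrgprdCre and PBS, transcript length correction left 3 of 6 calls, ending Il1a (-0.23, adjusted p = 0.052), Il18 (-0.07, 0.531) and Tslp (-0.15, 0.438). Quantile normalization ended Il18 (-0.16, 0.159) and Tslp (-0.31, 0.105). Tslp also lost its call with no filter (0.0948), under the block (0.102) and in 6 of 8 fits without 1 library.

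With a filter of 5 FPKM, fewer genes were tested and 1894 passed in sorted cells (3168), 3947 with glutamate (6562) and 3745 with NS102 (5886, 0 of the 10 genes). With no filter 3 of the 10 passed with glutamate and 3 with NS102, comparisons in which 79.3% and 70.5% of all genes passed with the filter. Apart from Il18 with glutamate and Il1a with NS102, these were genes that the filter had left out for low levels. Signs turned, without a call, for Il18 in MrgprdDTR with length correction (0.04), Il33 between the controls with median centring (0.02), quantile normalization (0.08) and length correction (0.07), and S100a8 in the difference of effects with pseudocount 5 (0.09). With single libraries left out they turned in MrgprdDTR for Krt16 (-0.22 to 0.33), Il1a (-0.1 to 0.0) and S100a9 (-0.4 to 0.04). Under β-alanine they did so for Il1a (-0.03 to 0.05), Il18 (-0.02 to 0.12), S100a8 (-1.1 to 0.08), S100a9 (-1.27 to 0.14), Krt6a (-0.58 to 0.19) and Krt6b (-1.43 to 0.18), and in the difference of effects for S100a8 (-0.54 to 0.64), S100a9 (-0.37 to 1.05) and Krt6b (-0.02 to 1.59). The cause was not tested. Equal replicate numbers did not pair the skin libraries throughout. The correlation of deviations was -0.04 to 0.15 in MrgprdDTR against MrgprdCre, where the own number matched best for 3 libraries. It was -0.16 to 0.37 in β-ala against PBS, where this held for 1, with 0.37 for PBS 3 and β-ala 3. Between the controls it was -0.41 to 0.03. With replicate numbers as a block 1510 genes passed in MrgprdDTR and 20 under β-alanine. The unknown depth limits what can be said of genes listed at 0.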
